A study of Saccharomyces cerevisiae with 4 samples.

Results

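The genes described here are the nuclear transfer RNA (tRNA) genes of the budding yeast Saccharomyces cerevisiae whose anticodon starts with cytosine. They were defined by name: rows of the deposited table whose identifier gives an anticodon that begins with C and whose locus is not mitochondrial. Earlier results of these data were known when the members were chosen. There were 51 such rows among 7130, in 12 anticodon groups, and 224 other nuclear tRNA rows. Many copies of a gene carry identical values, so rows of a group with the same 4 values are counted once as a value set, which leaves 24 value sets. Total RNA depleted of ribosomal RNA was sequenced from log-phase cells in enriched medium. There were 2 libraries of cells labelled Asr1-RING, in which the RING of Asr1 is mutated. Asr1 is a ubiquitin ligase that acts on the RNA polymerase that makes messenger RNA. There were also 2 libraries of cells labelled wild type (WT). The labels give no strain background, no allele, no number of clones and no word on whether replicates were grown separately. The limma p-values therefore set the group difference against a spread between these libraries, drawn in part from other rows, that may be technical.

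A tRNA carries an amino acid to the ribosome and reads the codon with its anticodon. Cytosine at the start of the anticodon pairs with G at the third codon base, so these tRNAs read codons that end in G. They include the tRNAs of methionine and tryptophan, which have a single codon each, and several tRNAs that are encoded by a single gene. RNA polymerase III transcribes tRNA genes from promoter elements inside the gene, the A box and the B box. The transcript is trimmed at both ends, spliced where it has an intron, modified at many bases and given its terminal CCA.

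The sequences below show the genes on which the results turn: both methionine tRNAs, the single-gene tRNAs, the pair of glycine genes that can be told apart, and the glutamate gene whose copies have unequal values. They are RefSeq sequences of the assembly R64, spliced and without the added CCA, written as DNA from 5′ to 3′ with the anticodon in capitals.
IMT1, initiator methionine: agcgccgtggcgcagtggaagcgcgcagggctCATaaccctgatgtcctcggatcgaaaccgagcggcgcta
EMT1, elongator methionine: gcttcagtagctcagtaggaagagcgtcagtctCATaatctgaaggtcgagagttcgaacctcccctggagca
CDC65, glutamine: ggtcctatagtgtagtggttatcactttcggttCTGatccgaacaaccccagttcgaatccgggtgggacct
HSX1, arginine: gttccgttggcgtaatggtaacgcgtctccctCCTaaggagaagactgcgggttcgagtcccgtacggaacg
TRR4, arginine: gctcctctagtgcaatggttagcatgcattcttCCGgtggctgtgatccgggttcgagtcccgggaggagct
TRT2, threonine: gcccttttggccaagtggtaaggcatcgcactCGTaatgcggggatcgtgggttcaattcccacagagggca
SUP61, serine: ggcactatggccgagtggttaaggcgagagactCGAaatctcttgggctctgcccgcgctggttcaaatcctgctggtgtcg
SUF3, glycine: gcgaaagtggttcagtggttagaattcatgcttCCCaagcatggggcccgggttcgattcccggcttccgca
SUF5, glycine: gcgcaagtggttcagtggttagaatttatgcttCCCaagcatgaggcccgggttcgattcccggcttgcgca
tE(CUC)D and tE(CUC)I, glutamate: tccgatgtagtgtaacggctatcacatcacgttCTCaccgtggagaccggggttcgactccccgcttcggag

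Of the 51 members, 49 were matched to a RefSeq gene, 19 of them by symbol, where the anticodon found in the sequence was that of the row, and the others by chromosome and anticodon. The initiator IMT1 and the elongator EMT1 share 49 of 77 aligned positions, while SUF3 and SUF5 share 68 of 72. The 14 lysine genes tK(CUU) are 1 sequence, the 2 glutamate genes are 1 sequence, and the 10 methionine genes are 2 sequences, 5 initiators and 5 elongators. The 8 matched leucine genes tL(CAA) have 1 spliced sequence and 4 gene sequences, which differ in an intron of 32 or 33 bases. Introns are annotated in 17 of the 51 C-start genes of R64, those of tL(CAA), tW(CCA) and SUP61, and in 43 of the 224 other nuclear tRNA genes. The core of the B box, searched as GTTCNANNC on the coding strand of each gene from its first to its last base, is held by 46 of the 51 C-start genes and by 224 of 224 others. The 5 genes without these letters are the 5 initiator genes.

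The values rested on few fragments. Among tRNA rows of 72 bp many values were whole multiples of a step, taken here as the value of 1 fragment, which was 69.1 and 66.3 FPKM in the Asr1-RING libraries and 62.7 and 72.6 FPKM in the WT libraries. FPKM are fragments scaled to transcript length and to the number of mapped fragments. The steps taken here fell faster with row length than in proportion to it. Of the values of rows that stand alone in their value set and hold at most 40 fragments, 8 of 19 and 11 of 20 in Asr1-RING and 8 of 14 and 10 of 17 in WT were whole within 0.01 of a fragment. The others fell between whole numbers. The step was itself chosen to make the most values whole, and it is a reading of the values, not a stated depth. For rows of 73 bp it was weaker, with 4 of 12 and 5 of 11 values whole in Asr1-RING and 2 of 7 and 1 of 7 in WT. For rows of the length of SUP61 it rested on 1 to 4 values per library. A floor of 3 fragments on a 72-bp row corresponds to 207.3 and 198.8 FPKM in Asr1-RING and to 188.2 and 217.9 FPKM in WT. In the member value sets with a step, 12 of 40 values in Asr1-RING and 4 of 40 values in WT lay under 3 fragments per row. Intervals and floors given here cover counting error only. Levels depend on row length, since 1 fragment on the longer SUP61 row was worth 16.5 and 15.8 FPKM in Asr1-RING and 15.0 and 17.3 FPKM in WT. Shares and group levels below sum or average rows of different length, and are compared only between libraries.

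**Figure D1:**
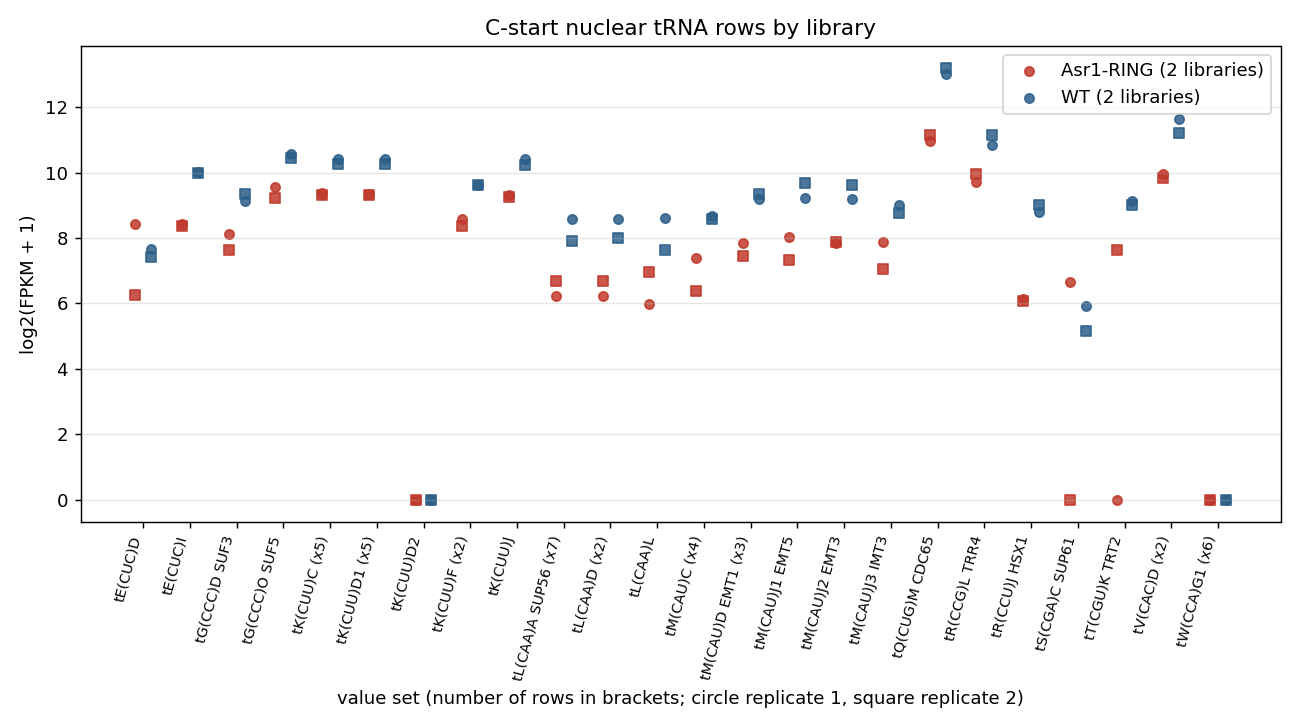
Value of each of the 24 C-start value sets in each library, as log2(FPKM + 1), with Asr1-RING to the left of WT; circles are replicate 1, squares are replicate 2, and brackets give the number of rows in a set. In 20 of the 22 tested sets both Asr1-RING libraries lie below both WT libraries; tK(CUU)D2 and the tW(CCA) rows lie at the bottom in all 4 libraries.

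Most C-start tRNA rows were lower in the Asr1-RING libraries, as most other tRNA rows were. Of the 51 rows, 44 had a mean of at least 1 FPKM over the 4 libraries and were tested with limma on log2(FPKM + 1) in a fit over all 6892 rows that passed this filter. Of these 40 fell, 0 rose and 4 did not pass an adjusted p of 0.05. Counted once per value set, 18 of 22 fell, 0 rose and 4 did not pass, which is 81.8% lower. Over all rows tested 4.95% were lower and 1.89% higher by the same rule. Of the 66 other tRNA value sets 78.8% were lower and 3.03% higher, and of the 222 other tRNA rows 83.8% were lower and 1.35% higher. The median log2 difference of the C-start value sets was -1.57 (quartiles -1.79 and -1.14), against -1.39 for the other tRNA value sets and 0.02 for all rows. In 20 of the 22 sets both Asr1-RING values lay below both WT values, which 27.2% of all tested rows did. With no filter on low values 10 value sets fell (22 rows), and after quantile normalization 12 (23 rows). Where a library is left out below, its group is 1 library, which limma takes to vary like the rest, so those p-values carry no spread of that group's own. FPKM are relative to all mapped fragments of a library. Less tRNA per cell and more of other RNA per cell therefore cannot be told apart.

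The share of C-start rows in tRNA FPKM overlapped between the groups. These rows held 10.8% and 9.19% of the summed FPKM of nuclear tRNA rows in the Asr1-RING libraries, against 9.05% and 9.89% in the WT libraries. The ranges overlap, and the difference of 0.508 percentage points had p = 0.667 in a two-sided exact permutation test, whose smallest possible p with 2 libraries against 2 is 0.333. With value sets in place of rows the difference was -1.04 points, so its sign depends on how copies are counted. Of the whole table, C-start rows held 0.467% and 0.439% of the summed FPKM in Asr1-RING and 0.86% and 0.896% in WT (p = 0.333, the smallest that the exact permutation test can give).

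**Figure D2:**
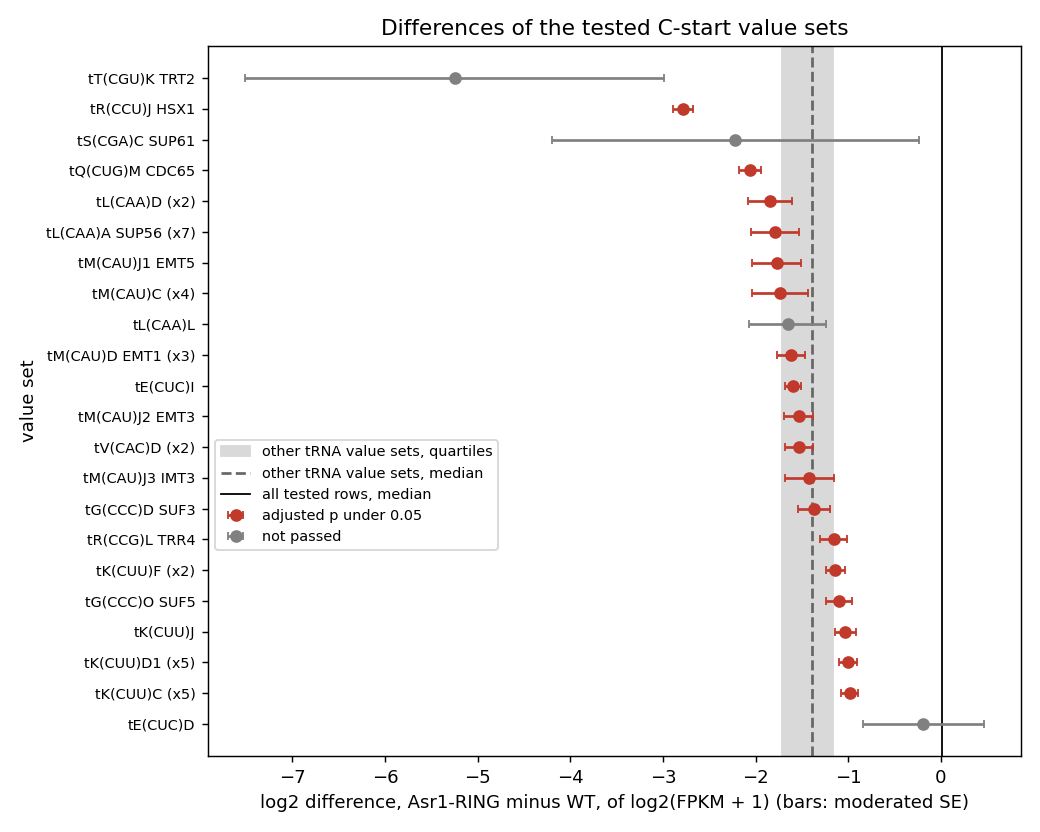
Log2 difference, Asr1-RING minus WT, of each of the 22 tested C-start value sets with its moderated standard error; red points passed an adjusted p of 0.05 and grey points did not. The grey band and dashed line are the quartiles and median (-1.39) of the other tRNA value sets, and the solid line is the median of all tested rows (0.02); the passing sets run from -2.79 to -0.99.

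Both forms of methionine tRNA fell, the elongator under more of the settings tried than the initiator. The initiator tRNA, which eIF2 brings to the start codon, is encoded by 5 rows of 1 sequence. Among them IMT1 (tM(CAU)O1, chromosome XV, 710202 to 710273 in the build sacCer2, as for all positions given), IMT2, IMT4 and tM(CAU)C share 1 value, which was 165.8 and 82.8 FPKM in Asr1-RING and 404.7 and 381.3 FPKM in WT. Both mutant libraries lay below both WT libraries, with a log2 difference of -1.74 ± 0.307 (SE; adjusted p = 0.0305 by limma). IMT3 (tM(CAU)J3) fell as well, with 234.9 and 132.5 FPKM in Asr1-RING and 514.5 and 435.8 FPKM in WT (log2 difference -1.42, limma adjusted p = 0.0381). Both initiator calls ended without WT replicate 1 (adjusted p = 0.179 and 0.234) or without WT replicate 2 (adjusted p = 0.135 and 0.128). They also ended with no filter (limma adjusted p = 0.116 and 0.122), after quantile normalization (0.0567 and 0.0798) and with robust moderation (0.0966 and 0.0788). Each thus held in 11 of 16 alternatives, which include the main fit read at an adjusted p under 0.1, where no call can end. Summed over the 5 initiator rows, the values came to 13 and 7 fragments in Asr1-RING and 34 and 27 fragments in WT, each whole within 0.02. At these numbers the depth-adjusted ratio of Asr1-RING to WT was 0.329, with an exact 95% interval of 0.188 to 0.554.

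The elongator tRNA, which reads AUG within the message, comes from EMT1 to EMT5. EMT1, EMT2 and EMT4 share 1 value, which was 228.5 and 173.5 FPKM in Asr1-RING and 579.3 and 647.2 FPKM in WT (-1.62 ± 0.153 on the log2 scale, SE; adjusted p = 0.00351 by limma). EMT5 (tM(CAU)J1) had the highest mean of the elongator sets, with 260.2 and 158.3 FPKM in Asr1-RING and 593.7 and 814.0 FPKM in WT (log2 difference -1.77, limma adjusted p = 0.0165, with adjusted p = 0.0855 without WT replicate 2 and 0.097 with no filter). EMT3 (tM(CAU)J2), whose row lies inside YJL007C, had 228.5 and 234.4 FPKM in Asr1-RING and 579.3 and 780.7 FPKM in WT (limma adjusted p = 0.00398). In each of these sets the mutant libraries lay below the WT libraries without overlap. The 5 elongator rows together came to 18.5 and 15 fragments in Asr1-RING and 50.5 and 53 fragments in WT, not all of them whole numbers.

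The 5 anticodons with a single row are CDC65, HSX1, TRR4, TRT2 and SUP61, of which 3 fell. CDC65 (tQ(CUG)M, chromosome XIII, 808245 to 808316), the glutamine tRNA that reads CAG and is known from a cell-cycle mutant, had 2004 and 2253 FPKM in Asr1-RING and 8291 and 9443 FPKM in WT. Its groups lay far apart, with a 4.17-fold lower mean in Asr1-RING (-2.06 ± 0.116 on the log2 scale, SE; adjusted p = 0.0015 by limma). It was the best covered single row, with 29 and 34 fragments in Asr1-RING and 132.1 and 130 fragments in WT. CDC65 made up 11.5% and 13.6% of C-start FPKM in Asr1-RING and 18.0% and 21.6% in WT (p = 0.333, the smallest that the two-sided exact permutation test can give).

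HSX1 (tR(CCU)J, chromosome X, 538547 to 538618) is the arginine tRNA that reads AGG. Its values of 69.1 and 66.3 FPKM in Asr1-RING and 439.2 and 508.5 FPKM in WT correspond to 1 and 1 fragments in Asr1-RING and to 7 and 7 fragments in WT. It had the largest fall among the sets that passed, with a log2 difference of -2.79 ± 0.108 (SE; adjusted p = 0.00133 by limma). The exact interval on 2 fragments in Asr1-RING and 14 in WT was wide, with a depth-adjusted ratio of 0.144 and bounds of 0.0158 and 0.625. Both Asr1-RING values are 1 step, so the small standard error is a spread between single fragments.

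TRR4 (tR(CCG)L, chromosome XII, 818609 to 818680), the arginine tRNA that reads CGG, had 829.1 and 994.0 FPKM in Asr1-RING and 1820 and 2252 FPKM in WT. These are 12 and 15 fragments in Asr1-RING and 29 and 31 fragments in WT, and the groups did not overlap (-1.16 ± 0.148 on the log2 scale, SE; adjusted p = 0.00954 by limma). The call ended with no filter on low values (adjusted p = 0.0644), and quantile normalization gave -0.64 and kept the call (adjusted p = 0.0461). The depth-adjusted ratio was 0.452 with an exact 95% interval of 0.276 to 0.723. The intervals of HSX1 and TRR4 overlap, and the difference between these arginine tRNAs was not tested.

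TRT2 (tT(CGU)K, chromosome XI, 46736 to 46807), the threonine tRNA that reads ACG, was listed at 0 and 198.8 FPKM in Asr1-RING and had 564.7 and 508.5 FPKM in WT. This is 0 and 3 fragments in Asr1-RING and 9 and 7 fragments in WT, a depth-adjusted ratio of 0.188 with an exact 95% interval of 0.0352 to 0.658. The fit gave a log2 difference of -5.25 ± 2.26 (SE; adjusted p = 0.21 by limma) that did not pass. The library at 0 enters the fit as the pseudocount alone. With the second Asr1-RING library alone the difference was -1.43, and with the first alone, listed at 0, it was -9.07. Each of these rests on 1 mutant library with no spread of its own, and the second is set by the pseudocount, so no p is given.

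SUP61 (tS(CGA)C, chromosome III, 227938 to 228038), the only serine tRNA gene with this anticodon and known as essential, had 98.8 and 0 FPKM in Asr1-RING and 59.8 and 34.6 FPKM in WT. Its row spans an intron of 19 bases, and its values were 6 and 0 fragments in Asr1-RING and 4 and 2 fragments in WT. The mutant libraries lay on both sides of the WT libraries. The difference did not pass (-2.22 ± 1.98 on the log2 scale, SE; adjusted p = 0.516 by limma), and it was 1.10 without Asr1-RING replicate 2. Leaving out the first mutant library in its place gave -5.54, from a lone library at 0 that enters as the pseudocount. No p is given for either, since 1 mutant library has no spread. The totals were 6 fragments in each group, with a ratio of 1.00 and an exact 95% interval of 0.269 to 3.76, so no difference was detectable at this depth.

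**Figure D3:**
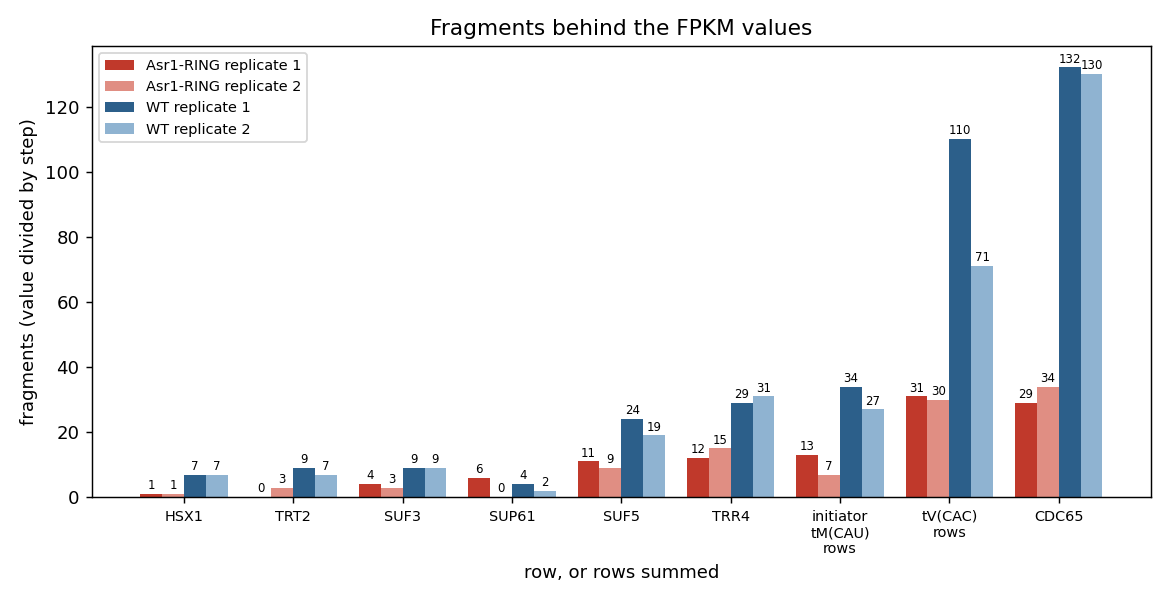
Fragments per library behind rows and row sums of C-start tRNAs, computed as the FPKM value divided by the value of 1 fragment; Asr1-RING bars are red and stand to the left of the blue WT bars. HSX1 rests on 1 and 1 fragments in Asr1-RING and 7 and 7 in WT, while CDC65 rests on 29 and 34 in Asr1-RING and 132.1 and 130 in WT.

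The glycine rows, which read GGG and were found through frameshift suppressors, both fell. SUF3 (tG(CCC)D, chromosome IV, 1257001 to 1257072) had 276.4 and 198.8 FPKM in Asr1-RING and 564.7 and 653.7 FPKM in WT, or 4 and 3 fragments in Asr1-RING and 9 and 9 in WT (log2 difference -1.37, limma adjusted p = 0.00961). SUF5 (tG(CCC)O, chromosome XV, 594355 to 594426) had 760.0 and 596.4 FPKM in Asr1-RING and 1506 and 1380 FPKM in WT, or 11 and 9 fragments in Asr1-RING and 24 and 19 in WT (log2 difference -1.10, limma adjusted p = 0.00948). In every library SUF5 was above SUF3, and in both rows the groups did not overlap. The depth-adjusted ratios were 0.391 for SUF3 (exact 95% interval 0.138 to 0.98) and 0.467 for SUF5 (0.26 to 0.812). The SUF3 call ended without WT replicate 2 (adjusted p = 0.0664) and the SUF5 call without WT replicate 1 (adjusted p = 0.0778). With no filter both calls ended (adjusted p = 0.0712 for SUF3 and 0.0626 for SUF5), and quantile normalization ended that of SUF5 (-0.62, adjusted p = 0.107).

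Of the glutamate rows of identical sequence, tE(CUC)I fell and tE(CUC)D did not pass, and the difference between them was not tested. tE(CUC)I (chromosome IX, 197589 to 197660), which reads GAG, had 345.5 and 331.3 FPKM in Asr1-RING and 1035 and 1017 FPKM in WT (-1.60 ± 0.0886 on the log2 scale, SE; adjusted p = 0.0015 by limma). The values of tE(CUC)I came to 5 and 5 fragments in Asr1-RING and 16.5 and 14 fragments in WT. Its small standard error is thus a spread between few fragments. tE(CUC)D (chromosome IV, 1017204 to 1017275) had 345.5 and 76.0 FPKM in Asr1-RING and 201.7 and 170.3 FPKM in WT, so its mutant libraries lay on both sides of the WT libraries. It did not pass (-0.19 ± 0.651 on the log2 scale, SE; adjusted p = 0.877 by limma). Its log2 difference was 0.89 without Asr1-RING replicate 2. Leaving out the first mutant library in its place gave -1.27 for tE(CUC)D and -1.63 for tE(CUC)I. The values of tE(CUC)D have opposite signs, and each rests on 1 mutant library with no spread of its own. The row of tE(CUC)D lies inside the open reading frame YDR278C, which was listed at 2.25e-06 and 2.25 FPKM in Asr1-RING and at 7.05 and 7.82 FPKM in WT. How the fragments of these overlapping rows and of the identical copy were divided is not stated in the labels, and its part in the values was not tested.

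Lysine tRNAs that read AAG formed the largest group, with 14 rows and 5 value sets. The set of tK(CUU)C, shared by 5 rows, had 661.0 and 641.0 FPKM in Asr1-RING and 1354 and 1229 FPKM in WT (-0.99 ± 0.097 on the log2 scale, SE; adjusted p = 0.00369 by limma). This set had the highest mean of the lysine sets of 73-bp rows. A second set of 5 rows, that of tK(CUU)D1, differed from it in the mutant libraries alone, with 653.0 and 630.9 FPKM. The rows tK(CUU)F and tK(CUU)I, annotated at 72 bp in place of 73, had 378.8 and 331.3 FPKM in Asr1-RING and 779.9 and 783.4 FPKM in WT (limma adjusted p = 0.00324). All 4 tested sets fell, by 0.99 to 1.14 on the log2 scale, and in each of them the groups did not overlap. Quantile normalization ended 3 of these calls, those of tK(CUU)C (-0.47, adjusted p = 0.062), tK(CUU)D1 (-0.50, adjusted p = 0.0543) and tK(CUU)J (-0.54, adjusted p = 0.0597). It kept that of tK(CUU)F (-0.82, adjusted p = 0.024). tK(CUU)D2 (chromosome IV, 1352459 to 1352531) has the same sequence and was near 0, at 0.0003 and 0.000944 FPKM in Asr1-RING and 0.00172 and 0.00539 FPKM in WT. Its row lies inside YDR445C and was not tested. The 14 rows together came to about 124.6 and 124.5 fragments in Asr1-RING and 283.5 and 223.6 fragments in WT, the most of any anticodon whose fragments were computed.

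Leucine tRNAs that read UUG are spliced, and their rows span the intron. The set of 7 rows that includes SUP56, SUP53 and SUP54, named for suppressor mutations, had 73.5 and 102.1 FPKM in Asr1-RING and 381.8 and 239.6 FPKM in WT (-1.79 ± 0.257 on the log2 scale, SE; adjusted p = 0.0146 by limma, with 0.0521 without WT replicate 1 and 0.0895 with no filter). tL(CAA)D and tL(CAA)G3 had the same values but for 257.0 FPKM in WT replicate 2 (limma adjusted p = 0.0094, and 0.0783 with no filter). tL(CAA)L had 62.6 and 123.2 FPKM in Asr1-RING and 391.8 and 197.3 FPKM in WT and did not pass (-1.65 ± 0.417 on the log2 scale, SE; adjusted p = 0.0763 by limma). The groups did not overlap in any of the 3 sets. No step was recovered for rows of this length, so the number of fragments behind them is unknown.

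The valine rows tV(CAC)D and tV(CAC)H, which read GUG, share 1 value of 983.8 and 913.1 FPKM in Asr1-RING and 3170 and 2369 FPKM in WT. Together they held 31 and 30 fragments in Asr1-RING and 110 and 71 fragments in WT, and they fell with a log2 difference of -1.53 ± 0.155 (SE; adjusted p = 0.00399 by limma). The depth-adjusted ratio was 0.339 with an exact 95% interval of 0.249 to 0.455. All 6 tryptophan rows tW(CCA), of 106 bp with an intron of 34 bases, were listed at 0 in all 4 libraries and were not tested. Tryptophan tRNA is needed by every growing cell, so only the listing at 0 is reported. With tK(CUU)D2, they make up 7 of the 9 nuclear tRNA rows that were not tested. The 2 mitochondrial methionine rows outside the members were also at 0, as were all 24 mitochondrial tRNA rows.

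A C-start tRNA was set against the U-start tRNA of the same amino acid whose anticodon differs from it in the first base alone, which reads the codon ending in A. There were 9 such pairs, and a group's level is the mean FPKM over its value sets. Rows differ in length, so a level of C minus U is to be read only for its change between Asr1-RING and WT. The C-start group was lower relative to its partner in Asr1-RING than in WT in 7 of 9 pairs, with a median difference of -0.42 on the log2 scale. With a pseudocount of 5 the count was 6 of 9. The pair of tS(CGA), which includes an Asr1-RING library listed at 0, then stood at 0.0345. None of the 9 passed an exact permutation test (adjusted p of 0.75 to 1 over the 9 pairs), and with 2 libraries against 2 none could. In 4 pairs, tK(CUU), tQ(CUG), tR(CCU) and tT(CGU), the libraries did not overlap. With library labels exchanged at random, non-overlap has a probability of 0.333 per pair, so 4 of 9 lies near that share. Of all tested rows, taken singly and not as pairs, 27.2% had both Asr1-RING values below both WT values and 33.0% had them above. The pair of tT(CGU) also includes a library listed at 0. For glutamine, the log2 level of tQ(CUG) minus that of tQ(UUG) was 3.11 and 3.30 in Asr1-RING and 3.55 and 3.77 in WT. For lysine, tK(CUU) minus tK(UUU) was 0.60 and 0.71 in Asr1-RING and 1.24 and 0.92 in WT. For arginine, tR(CCU) minus tR(UCU) was -3.96 and -4.45 in Asr1-RING and -3.62 and -3.00 in WT, with single fragments behind tR(CCU) in Asr1-RING. For valine, tV(CAC) minus tV(UAC) was -0.18 and -0.43 in Asr1-RING and 0.42 and -0.38 in WT, and the libraries overlapped. In glutamate and glycine the C-start group was higher relative to its partner in Asr1-RING, by 0.23 and 0.38. The closest sequences within a pair share 67 of 72 positions for tE(CUC) and tE(UUC), 68 of 72 for tQ(CUG) and tQ(UUG), and 79 of 82 for tS(CGA) and tS(UGA), against 51 of 72 for tT(CGU) and tT(UGU).

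**Figure D4:**
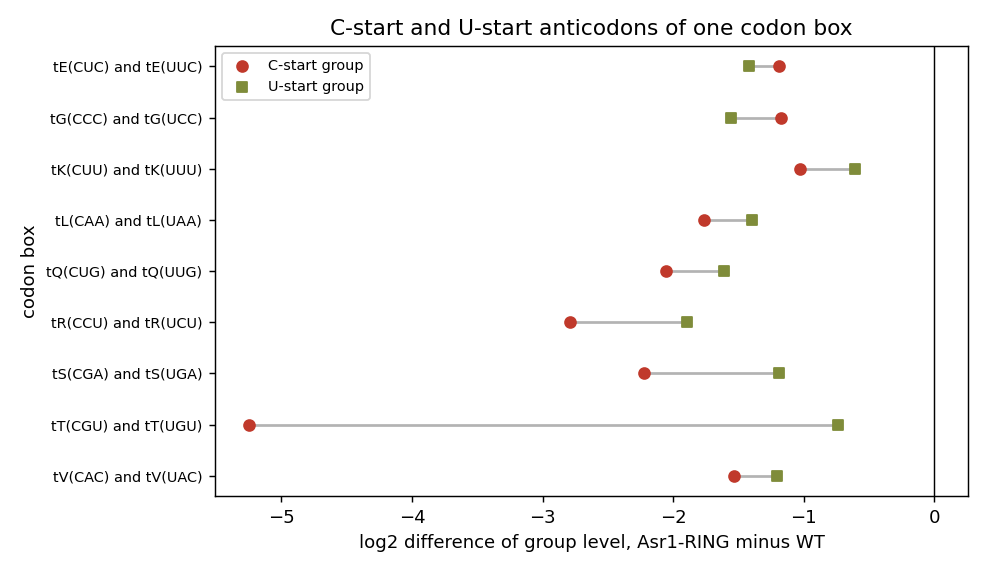
Log2 difference of the group level, Asr1-RING minus WT, of the C-start anticodon (red circle) and of the U-start anticodon of the same amino acid (green square) in 9 codon boxes. All 18 points lie below 0, and the C-start point lies to the left of its partner in 7 of 9 boxes. tT(CGU), at -5.25, and tS(CGA), at -2.22, each include an Asr1-RING library listed at 0, so their places depend on the pseudocount.

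Of the genes that serve these tRNAs, none was called at an adjusted p under 0.05 by limma. At an unadjusted p under 0.05 lay 26.4% of all tested rows. The synthetases that charge the member tRNAs had 0 of 11 rows called and 7 with an unadjusted p under 0.05, with a median log2 difference of 0.34 against 0.02 for all rows. In 10 of the 11 both Asr1-RING values lay above both WT values, as in 33.0% of all tested rows. At an adjusted p under 0.1, 5 of the 11 synthetases were higher, MES1, YDR341C, GRS1, CDC60 and THS1, as were 6.51% of all tested rows. MES1, which charges both methionine tRNAs, had 188.1 and 254.9 FPKM in Asr1-RING and 136.9 and 152.7 FPKM in WT (log2 difference 0.60, limma adjusted p = 0.0894). YDR341C, the arginine synthetase, had 145.2 and 187.5 FPKM in Asr1-RING and 105.8 and 110.2 FPKM in WT (log2 difference 0.61, limma adjusted p = 0.0614). GLN4, for glutamine, had a log2 difference of 0.18, KRS1, for lysine, 0.34, and CDC60, for leucine, 0.58. GRS1, for glycine, was at 0.56, GUS1, for glutamate, at 0.48, VAS1, for valine, at 0.33, THS1, for threonine, at 0.33, and WRS1, for tryptophan, at 0.19. SES1, for serine, was at -0.04, with 195.3 and 183.6 FPKM in Asr1-RING and 199.4 and 190.5 FPKM in WT.

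The other lists likewise had 0 rows called at 0.05, and at 0.1 TRM7, MSN5 and MET22 were higher, 1 each among the modification, export and surveillance genes. For tRNA modification this was 0 of 16, with 2 at an unadjusted p under 0.05 and a median log2 difference of -0.01, and for splicing and export 0 of 9, with 3 at an unadjusted p under 0.05 and a median of 0.19. End processing had 0 of 7 called, with RPR1, the RNA of RNase P, alone at an unadjusted p under 0.05, at 16651 and 14012 FPKM in Asr1-RING and 21664 and 19138 FPKM in WT (log2 difference -0.41, limma adjusted p = 0.118). The eIF2 subunits had 0 of 3 called (2 with an unadjusted p under 0.05, median 0.31) and the surveillance genes 0 of 5 (1, median 0.12). The factors of RNA polymerase III with the repressor MAF1 had 0 of 10 called, 1 with an unadjusted p under 0.05 and a median of -0.08. That gene was MAF1, with 15.7 and 18.1 FPKM in Asr1-RING and 12.8 and 13.4 FPKM in WT (log2 difference 0.34, limma adjusted p = 0.122). As a check of the strain, the 4 markers of alpha cells lay between 337.2 and 4302 FPKM and the 6 of a cells between 2.40 and 67.2 FPKM over all libraries, with 0 of 10 called and 2, STE2 and AGA2, at an unadjusted p under 0.05. At an adjusted p under 0.1 AGA2 was higher (limma adjusted p = 0.0976), at 5.63 and 3.81 FPKM in Asr1-RING and 2.40 and 2.78 FPKM in WT.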

How the data were processed

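The deposited table holds 7130 rows and 4 columns of FPKM. The submitters' processing notes name TopHat2, Cufflinks and the build sacCer2. Versions, settings, annotation, strand handling and the treatment of fragments that match several copies are not stated in the labels. Column names hold the description labels, which gave each column's sample, and 0 value columns were unused. Coordinates are those of the table, counted from 1. R64 gave sequences and names only.

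Values were analysed as log2(FPKM + 1) over 6892 rows whose mean reached 1 FPKM, and 238 rows were left out. The groups were tested with limma, its variances moderated along the mean level (residual degrees of freedom 2, prior 3.71). P-values were adjusted over all tested rows by the Benjamini-Hochberg method, and rows were called at an adjusted p under 0.05. The test was checked on simulated data. These were independent rows with normal spread on the log2 scale, so the check did not cover values of few fragments or identical copies. The summed FPKM was 3742850 and 3777250 in Asr1-RING and 5369810 and 4870210 in WT.

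The value of 1 fragment on 72-bp rows was taken in each library as the step at which most values were whole within 0.01, and on rows of 73 bp and of the length of SUP61 as this step times 1 factor common to the 4 libraries. Totals were called whole within 0.02. Ratios of fragments are conditional on their total, with exact Clopper-Pearson bounds at 95%, and the step of each library as its depth. The steps enter only these ratios and intervals, not the limma fit.

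Every anticodon group was described, with single-row groups, the most shared, highest and lowest value sets, and sets that did not pass named. The members, lists and named sets were chosen with earlier results of these data known. Other settings tried were a pseudocount of 0.1 or 5, all rows kept, a floor of 10 FPKM on the mean, centring on the median, quantile normalization, no trend, robust moderation, the replicate block, identical rows counted once, an adjusted p under 0.1 and each library left out. A pseudocount of 50, near 1 fragment, was added after the data were seen. The work was done in R 4.3.3 (limma 3.58.1) and Python 3.11.15 (Biopython 1.88, scipy 1.17.1, numpy 2.4.6, pandas 2.3.3, matplotlib 3.10.9).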

Additional observations from a re-analysis of the deposited data

How the results depend on the processing

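The count of C-start value sets that fell was 18, and it was 10 with no filter on low values (22 rows) and 12 after quantile normalization (23 rows, against 40). With any single library left out it was 14 to 21 (27 to 43 rows), with 0 to 1 set (0 to 1 row) called higher, that 1 being tE(CUC)D without Asr1-RING replicate 2, where the mutant group is 1 library with no spread of its own. The pseudocount of 50, added after the data were seen, left 18 and a median of -1.30. The median log2 difference of the sets was -1.64 to -1.28 over the settings tried. The calls of CDC65, HSX1, tE(CUC)I, tV(CAC), tK(CUU)F and the EMT1 and EMT3 sets held under all 16 alternatives to the fit. Over all rows, the counts lower and higher were 182 and 21 with no filter, 176 rows lower with identical rows counted once, 216 higher with a minimum mean of 10 FPKM, 70 with median centring, 307 with quantile normalization, 256 with robust moderation and 449 at an adjusted p under 0.1. Leaving out 1 library gave 197 to 553 lower and 16 to 781 higher.

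The sign turned for tE(CUC)D and SUP61 without Asr1-RING replicate 2: with 1 library left out, tE(CUC)D lay between -1.27 and 0.89 and SUP61 between -5.54 and 1.10. The C-start share of tRNA FPKM differed by -1.04 points over distinct value sets and by -0.28 to 1.29 points with 1 library left out. Among the codon boxes the sign turned for tS(CGA) with a pseudocount of 5 (0.0345). With 1 library left out the difference was -4.46 to 2.41 for tS(CGA), -0.47 to 0.93 for tE(CUC), -0.0368 to 0.798 for tG(CCC) and -0.728 to 0.0711 for tV(CAC), each range crossing 0. The cause was not tested. With the replicate block 18 value sets fell as before, and 381 rows were lower and 237 higher. Same-numbered libraries share only a number, with a correlation of deviations of -0.0712. HSX1, TRT2, SUF3, SUP61 and tE(CUC)D rest on a few fragments per library, as does tE(CUC)I in Asr1-RING, and the number behind the leucine rows is unknown.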
